A study of Mus musculus with 8 samples.

Results

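The autophagy and lysosome genes described here are 33 of the 17810 genes listed for the livers, taken by symbol from the TFEB family, the lysosomal hydrolases and membrane proteins, and the core genes of autophagy. All 33 had enough counts to be tested, among 12395 genes tested in all. Gene expression was measured by RNA-Seq in the livers of 4 WT and 4 HKO male littermates, 1 library per mouse. HKO mice carry floxed miR-33 alleles and Albumin-Cre, and the controls are given as WT. All 8 mice started a CD-HFD, a diet high in fat and without choline, at 8 weeks of age, ate it for 3 months and were 5 months old at collection, so no chow-fed group enters the comparison. The study states that its mice were fasted for some hours at the end time points. The albumin promoter drives Cre in hepatocytes, and miR-33 in other liver cells of HKO mice was not measured here. Livers were perfused with PBS and frozen whole, and in such bulk RNA fewer cells of a type and less RNA per cell cannot be told apart. The comparison addressed which transcripts of the autophagy and lysosome pathways differ when hepatocytes lack miR-33 in a fatty liver.

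Autophagy encloses cell material in a double membrane, the autophagosome, which then fuses with the lysosome, an acidic organelle filled with hydrolases. In the liver this route breaks down proteins, organelles and part of the lipid droplets. The transcription factors TFEB and TFE3 switch on many of its genes through an E-box with the letters CACGTG, and the kinase mTOR keeps both factors out of the nucleus when nutrients are plentiful. In macrophages, miR-33 is known to repress autophagy genes, with Atg5, Atg12, Map1lc3b and Lamp1 among the targets described.

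The estimated counts added up to 12174339 to 18735785 per liver, so that the floor of 3 counts lay between 0.16 and 0.246 CPM (counts per 1000000, with TMM-scaled totals). The lowest count of any of the 33 genes in any liver was 38. Hepatocyte markers summed to 79057 to 111082 CPM in WT and 70419 to 124225 CPM in HKO livers, and no hepatocyte marker was at 0. In the S numbers that end the column headers, all HKO libraries stood before all WT libraries. What these numbers stand for is not given, so genotype and whatever they mark cannot be told apart. The cholangiocyte markers stood apart in 1 liver, HKO replicate 2, with a sum of 44.6 CPM against 6.16 to 16.4 CPM in the other 7. The floor covers counting error only.

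Because the HKO mice lack miR-33 in hepatocytes, the sequence of this microRNA and its matches among the 33 genes are given first. The mature strand lies at chr15:82198127-82198147 on the plus strand of GRCm38.p6 (RefSeq) and is printed with its seed, bases 2 to 8, in capitals.
mmu-miR-33-5p: gUGCAUUGuaguugcauugca
A seed match was counted where the longest annotated 3′UTR (GENCODE, GRCm38) held CAATGCA, the reverse complement of the seed, or AATGCAA, the reverse complement of bases 2 to 7 followed by an A. Such a match was present in 2 of the 33 genes (6.06%), Atg5 and Rb1cc1, against 1868 (16.2%) of the 11523 tested genes whose annotated 3′UTR reached 50 bases. The median 3′UTR was 1424 bases long in the 33 genes and 1204 bases in the tested genes. Both sites are printed below with the matching run in capitals, Atg5 at chr10:44363263-44363291 and Rb1cc1 at chr1:6276082-6276111, both on the plus strand.
Atg5: ttctcgtgaAATGCAATGCAgccgaagcc
Rb1cc1: gtttgcactttCAATGCAAaaatttttagg
The run in Atg5 joins 2 overlapping matches over 11 bases and starts at base 220 of a 3′UTR of 1239 bases. That in Rb1cc1 is 8 bases long and starts at base 1818 of 2373. It lies at the very end of the listed gene, which stops at base 6276104, so the printed stretch runs past it. GENCODE extends Rb1cc1 to base 6276648. No match was found in the 3′UTRs of Atg12, Lamp1 or Map1lc3b, which says only that these letters are not there.

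The E-box was looked for in the promoters, since TFEB and TFE3 bind it. RefSeq (GRCm38.p6) windows from 250 bases before to 50 bases after the start were at hand for 26 of the 33 genes, and CACGTG, which reads the same on both strands, was present in 11 of them (42.3%). The 26 genes had 31 windows, since some have more than 1 annotated start, and a gene counted where any window held the motif. The share was 11.8% among the tested genes and 8.09% among all genes with a window. The longer form TCACGTGA was present in 5 of the 26 genes (19.2%), Atp6v0d1, Atp6v1a, Ctsa, Gla and Mcoln1, against 2.2% of the tested genes. Every TCACGTGA also counts as a CACGTG. The form with a G before and a C after TCACGTGA was found in 0 of the 26 genes and in 0.776% of the tested genes. The 5 stretches that follow were chosen to show genes with several motifs and the called gene Atg14, and capitals mark the motifs. They lie at chr8:13159080-13159171 (plus strand, Lamp1), chr2:164833741-164833803 (plus, Ctsa), chrX:134601174-134601252 (minus, Gla), chr8:3500428-3500499 (plus, Mcoln1) and chr14:47568410-47568455 (minus, Atg14).
Lamp1: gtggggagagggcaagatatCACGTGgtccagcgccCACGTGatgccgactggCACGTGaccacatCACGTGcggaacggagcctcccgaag
Ctsa: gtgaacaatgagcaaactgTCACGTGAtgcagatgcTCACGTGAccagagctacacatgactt
Gla: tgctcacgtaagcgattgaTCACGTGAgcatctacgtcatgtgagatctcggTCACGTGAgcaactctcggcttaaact
Mcoln1: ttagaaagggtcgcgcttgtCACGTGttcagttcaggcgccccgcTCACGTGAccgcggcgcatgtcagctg
Atg14: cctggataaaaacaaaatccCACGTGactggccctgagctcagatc
The stretch of Ctsa belongs to an alternative start inside the listed gene, as does the window with the motif of Atg7. That of Atg14 lies at the start of the listed gene, while GENCODE extends this gene further upstream, to base 47570649. Lamp1 held 4 copies of CACGTG, and Ctsa and Gla held 2 copies each of TCACGTGA.

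Few of the 33 genes differed between the genotypes by the quasi-likelihood test of edgeR, adjusted by Benjamini-Hochberg over all genes tested. Atg14, which directs the phosphatidylinositol 3-kinase complex to sites of autophagosome formation, was 1.34-fold higher in HKO livers. Psap, the precursor of the saposins that help lysosomal enzymes reach sphingolipids, was lower, at 0.714 of the WT level. The 2 calls are 6.06% of the 33 genes, beside 5.03% of all genes tested. In HKO livers 1 of the 33 was called higher, where 1.66% of all tested genes were, and 1 was called lower, where 3.37% were. The log2 fold changes lay above 0 in 15 genes and below 0 in 18, with a median of -0.028 against 0.0090 over all tested genes. They ranged from -0.49 to 0.42, within the 5th to 95th percentile of all tested genes (-0.66 to 0.47), and 22 of the 33 were under 0.2 in size. An unadjusted p under 0.05 was found for 12 genes (36.4%), 5 higher and 7 lower, against 19.8% of all tested genes.

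The livers of the genotypes did not overlap in CPM for 8 of the 33 genes (24.2%), beside 12.5% of all tested genes. All HKO livers lay above all WT livers for Ctsl, Gla, Rb1cc1, Atg14 and Uvrag, 5 genes, where 5.34% of all tested genes did so. All HKO livers lay below all WT livers for Lamp1, Gusb and Psap, 3 genes, where 7.19% of all tested genes did so. The 33 genes were expressed higher and varied less than most: their median level was 45.3 CPM against 14.6 CPM over tested genes. Their median coefficient of variation was 9.41% in WT and 8.79% in HKO livers, against 12.7% and 13.4% over tested genes.

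**Figure D1:**
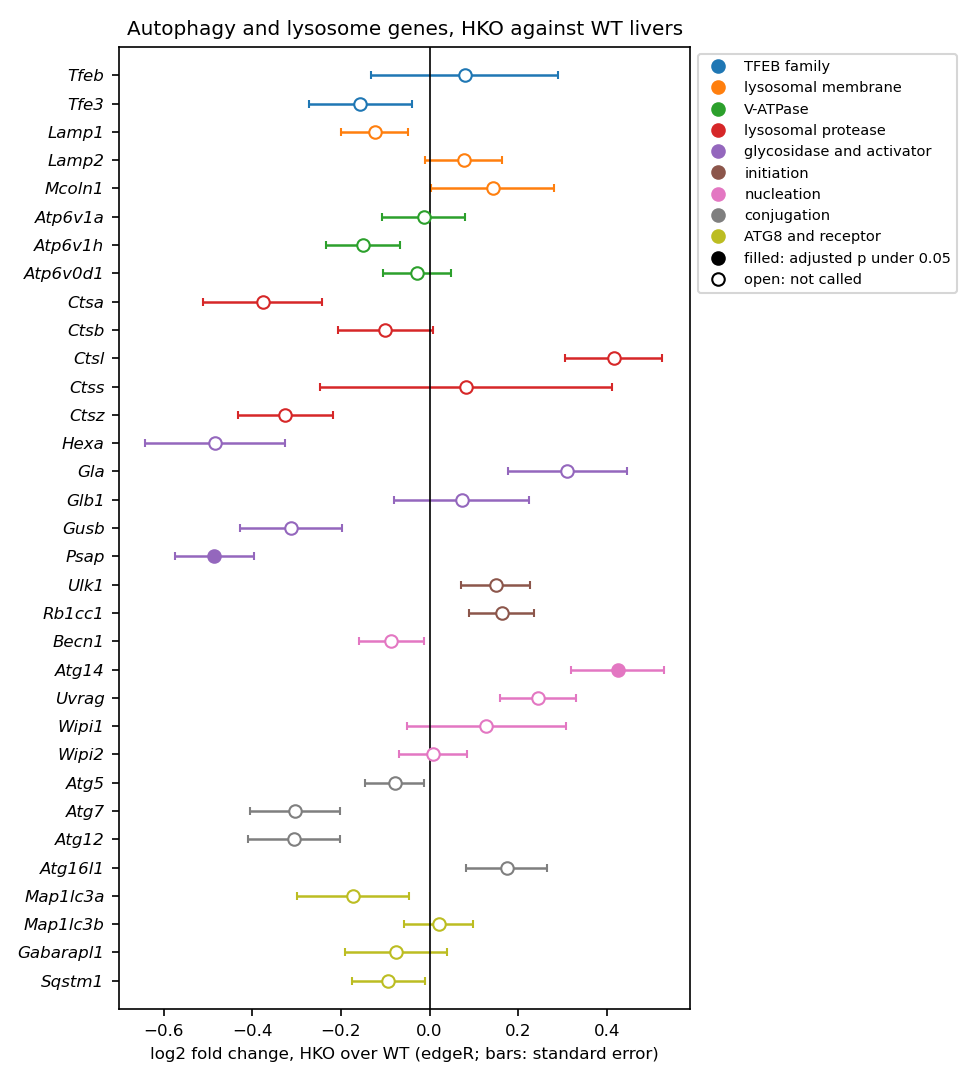
Log2 fold change of HKO over WT livers (x axis) for the 33 autophagy and lysosome genes (y axis), coloured by role, with the standard error from edgeR as bars and n = 4 livers per genotype. Filled points passed an adjusted p under 0.05: Atg14 at 0.42 and Psap at -0.49, while 22 of the 33 points lie within 0.2 of 0.

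Within the TFEB family, Tfeb was low in these livers, while Tfe3 lay near the median level of tested genes, 14.6 CPM. Tfeb was at 4.13, 2.86, 2.48 and 4.14 CPM in WT replicates 1 to 4 and at 3.64, 3.86, 3.55 and 3.23 CPM in HKO replicates 1 to 4. The HKO values all fell inside the WT range, and the log2 fold change was 0.080 with a standard error of 0.21 (edgeR adjusted p = 0.884). Tfe3 was at 14.9, 18.4, 17.5 and 15.4 CPM in WT and at 16.5, 15.3, 12.6 and 15.1 CPM in HKO livers. Its groups overlapped too, with a log2 fold change of -0.16 (standard error 0.12, edgeR adjusted p = 0.512). Per kilobase of exon, Tfeb had the lowest WT level of the 33 genes, at 0.847 CPM per kb, and Tfe3 ranked 29 with 4.57.

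Of the lysosomal membrane proteins, Lamp1 and Lamp2 were the most abundant of these transcripts and Mcoln1 was low. Lamp1, a heavily glycosylated protein that lines the lysosome from within, was at 939.2, 905.2, 890.4 and 942.2 CPM in WT livers. In HKO livers it was at 872.3, 834.5, 809.8 and 858.1 CPM. Every HKO liver lay below every WT liver, but the difference was small, with a log2 fold change of -0.12 (standard error 0.076) that did not pass the test (edgeR adjusted p = 0.408). Its relative Lamp2, needed for fusion with autophagosomes and for chaperone-mediated autophagy, had a mean of 1196.8 ± 98.0 CPM (SD, n = 4) in WT and 1262.3 ± 38.4 in HKO livers. Mcoln1, the calcium channel of the lysosome, had 10.6 ± 1.31 and 11.7 ± 1.69 CPM. Per kilobase of exon, Lamp1 was first of the 33 genes in WT livers with 412.4 CPM per kb and Lamp2 second with 237.5. The estimated counts were fractional in at least 1 liver for 7 of the 33 genes, in 7 livers for Lamp2 and Becn1, in 6 for Lamp1 and Sqstm1, and in 5 for Ctsa, Ctsb and the called gene Psap, as happens where reads are split between sequences.

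The 3 subunits of the V-ATPase, the proton pump that acidifies the lysosome, differed little. Atp6v1a and Atp6v1h belong to the part that splits ATP and Atp6v0d1 to the part in the membrane. Their log2 fold changes were -0.014, -0.15 and -0.028, with overlapping groups and 0 calls. Together with 13 other subunits and accessory proteins from the wider lysosome list, 4 of 16 V-ATPase genes lay above 0 and 12 below. None of the 16 was called by edgeR, DESeq2 or limma-voom, and 1, on the higher side, had an unadjusted p under 0.05. Their log2 fold changes ranged from -0.18 to 0.21.

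The 5 lysosomal proteases had fold changes in both directions. Ctsl (cathepsin L), at chr13:64361890-64370520, was at 628.0, 492.7, 500.8 and 582.2 CPM in WT livers and at 631.2, 734.5, 751.1 and 821.4 CPM in HKO livers. All HKO livers were above all WT livers, with HKO replicate 1 only just above WT replicate 1. The log2 fold change of 0.41 (standard error 0.11) missed the threshold (edgeR adjusted p = 0.0509), while DESeq2 gave an adjusted p of 0.00625. Without HKO replicate 1, edgeR called it at 0.0317, and the range over the 8 fits that leave out a liver was 0.0317 to 0.166. Ctsz (cathepsin Z) had a mean of 126.4 ± 16.2 CPM (SD, n = 4) in WT and 100.9 ± 11.3 in HKO livers, with a fold change of -0.33 on the log2 scale (edgeR adjusted p = 0.114). Ctsa (protective protein cathepsin A), which keeps β-galactosidase and neuraminidase stable, had 85.7 ± 16.6 and 66.0 ± 7.88 CPM, a log2 fold change of -0.38 (edgeR adjusted p = 0.144). Ctsb (cathepsin B) had 511.5 ± 35.9 and 477.3 ± 70.4 CPM. Ctsa, Ctsb and Ctsz each overlap a gene on the other strand, as do Glb1, Becn1, Map1lc3b and Gabarapl1 below. The strand used in counting is not given in the sources used here.

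**Figure D2:**
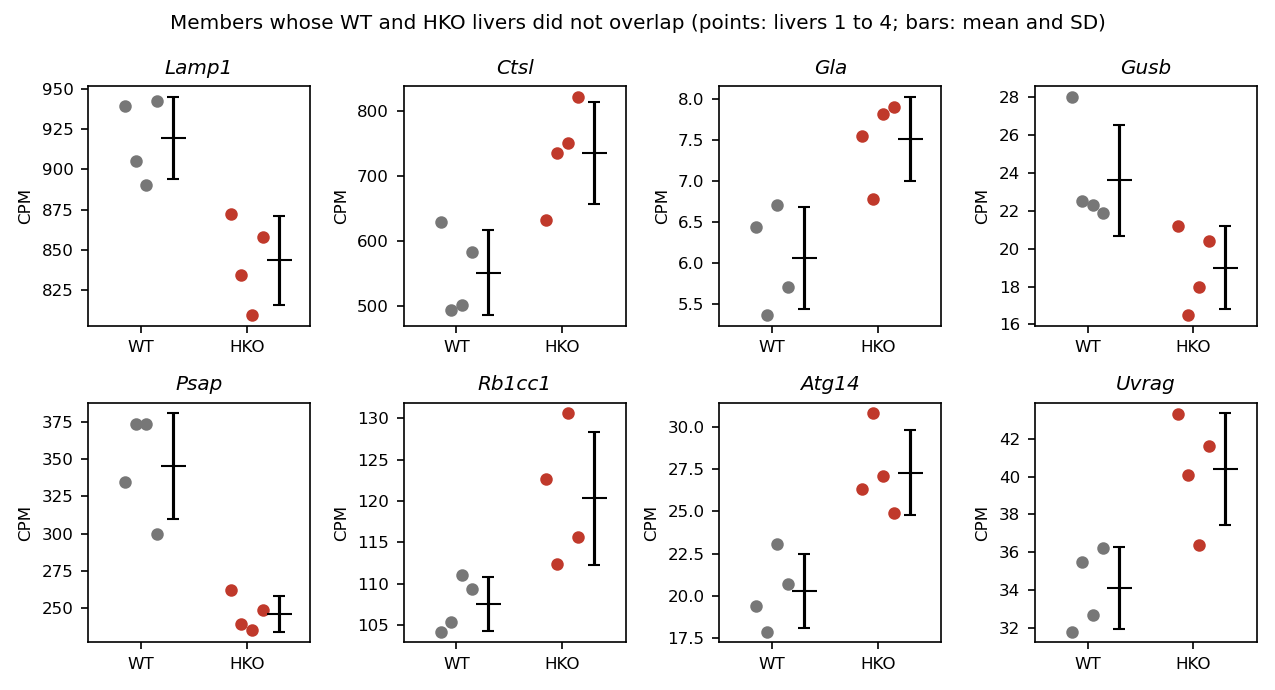
CPM in each liver (points) of the 8 genes whose WT and HKO livers did not overlap, with the mean and SD of 4 livers as bars; each y axis covers only the range of its own gene and does not start at 0. HKO livers are higher in Ctsl, Gla, Rb1cc1, Atg14 and Uvrag and lower in Lamp1, Gusb and Psap, and Psap shows the widest gap for its level, from 262.1 CPM in the highest HKO to 299.7 CPM in the lowest WT liver.

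Ctss (cathepsin S), a protease best known from macrophages and other antigen-presenting cells, varied most among the proteases. It was at 25.7, 42.7, 45.7 and 26.6 CPM in WT replicates 1 to 4 and at 39.9, 18.5, 45.9 and 44.6 CPM in HKO replicates 1 to 4. WT replicates 1 and 4 and HKO replicate 2 were low and the other 5 livers high, so the split ran across the genotypes. The log2 fold change was 0.082 with a standard error of 0.33 (edgeR adjusted p = 0.931). The same 3 livers were the lowest for 7 of 10 macrophage and Kupffer cell markers (Adgre1, Clec4f, Csf1r, Cd5l, Timd4, Vsig4 and Lyz2), for no other of the 33 genes, and for 345 of the tested genes (2.78%). Clec4f, a lectin of Kupffer cells, was at 20.3, 56.6, 55.2 and 28.3 CPM in WT and at 57.5, 19, 52.7 and 54.8 CPM in HKO livers. The 10 markers summed to 181.9 to 371.9 CPM in WT and 163.2 to 364.9 CPM in HKO livers, and 0 of the 10 were called by edgeR, DESeq2 or limma-voom or had an unadjusted p under 0.05. The part of these cells in the other differences was not tested.

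**Figure D3:**
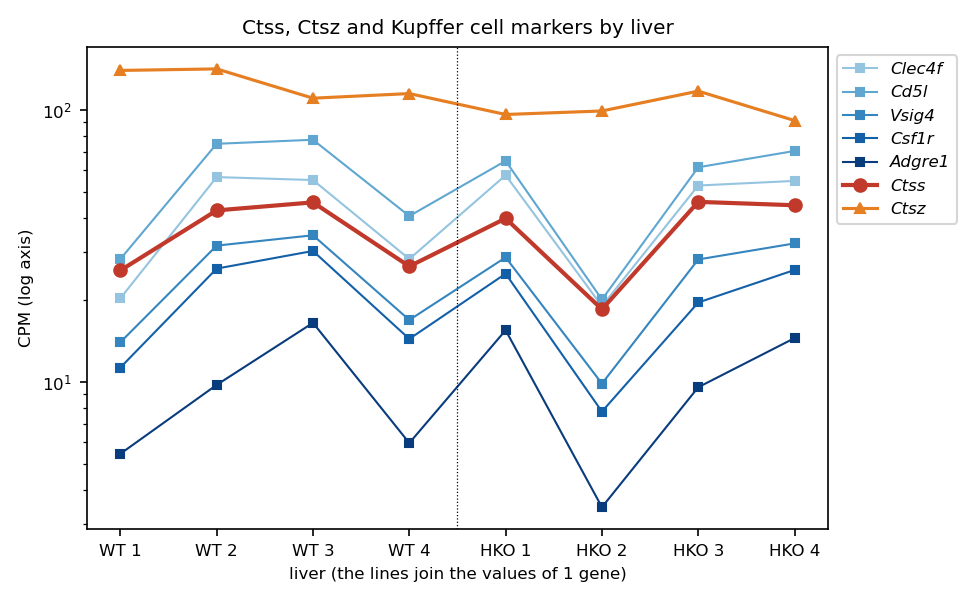
CPM (log axis) of Ctss, of Ctsz as another cathepsin, and of 5 Kupffer cell markers in each of the 8 livers (x axis), with lines joining the values of 1 gene. Ctss is low in WT replicates 1 and 4 and HKO replicate 2 (18.5 to 26.6 CPM) together with these 5 markers, while Ctsz is not. The 5 are among the 7 of 10 macrophage and Kupffer cell markers that were lowest in these livers.

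Of the glycosidases and their activator, Psap carried the only call. Psap, at chr10:60277628-60302600, was at 334.6, 373.2, 373.3 and 299.7 CPM in WT livers and at 262.1, 239.4, 235.3 and 249.3 CPM in HKO livers. Every HKO liver was below every WT liver, and the HKO livers lay closer together. The log2 fold change was -0.49 with a standard error of 0.088 (edgeR adjusted p = 0.0112), and DESeq2 and limma-voom gave adjusted p values of 2.36e-05 and 0.0133. The call was lost without WT replicate 2 (edgeR adjusted p = 0.0541) and kept in the other 7 fits that leave out a liver. Per kilobase of exon, Psap ranked 4 of the 33 in WT livers, with 125.8 CPM per kb against 89.8 in HKO livers.

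Hexa, the α subunit of the β-hexosaminidase that clears GM2 ganglioside, had nearly the same fold change as Psap but more spread. Its mean was 43.2 ± 8.75 CPM (SD, n = 4) in WT and 30.9 ± 4.93 in HKO livers. This gave a log2 fold change of -0.48 (standard error 0.16, edgeR adjusted p = 0.114). It was called, at an edgeR adjusted p of 0.0227, when WT replicate 4 was left out. Gusb (β-glucuronidase) was at 28.0, 22.5, 22.3 and 21.9 CPM in WT and at 21.2, 16.5, 18.0 and 20.4 CPM in HKO livers. Its groups did not overlap, WT replicate 1 stood above the rest, and the log2 fold change of -0.31 (standard error 0.12) was not called (edgeR adjusted p = 0.158). Gla (α-galactosidase A) lay on the other side of 0, with 6.44, 5.37, 6.71 and 5.71 CPM in WT and 7.55, 6.79, 7.82 and 7.91 CPM in HKO livers. The gap between its groups was small, and a log2 fold change of 0.31 (standard error 0.13) was not called (edgeR adjusted p = 0.227). Glb1 (β-galactosidase), whose coordinates hold a gene on each strand, had 8.70 ± 1.16 and 9.15 ± 1.51 CPM. Over the 10 proteases, glycosidases and the activator, 4 log2 fold changes lay above 0 and 6 below, with a median of -0.21, and 7 had an unadjusted p under 0.05, 2 higher and 5 lower.

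On the autophagy side, 6 of the 7 genes of initiation and nucleation had a log2 fold change above 0, with a median of 0.15. Over all tested genes 6402 of 12395 lay above 0. Of the 7 genes 1 was called higher, where 1.66% of all tested genes were. With scaling by total counts Wipi2 went below 0, to -0.081. Of the 44 autophagy genes of the wider list described below, 22 lay above 0 and 22 below. Ulk1, the kinase that receives the signals of mTOR and AMPK, had a mean of 39.0 ± 0.592 CPM (SD, n = 4) in WT and 43.2 ± 3.03 in HKO livers, 0.15 higher on the log2 scale (edgeR adjusted p = 0.323). Its scaffold partner Rb1cc1 (FIP200) was at 104.2, 105.4, 111.1 and 109.3 CPM in WT and at 122.6, 112.4, 130.6 and 115.7 CPM in HKO livers. All HKO livers were above all WT livers by a small margin, and the log2 fold change of 0.16 (standard error 0.073) was not called (edgeR adjusted p = 0.246). Rb1cc1 is 1 of the 2 genes with a miR-33 seed match shown above.

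Atg14, at chr14:47540893-47568434, was at 19.4, 17.9, 23.1 and 20.7 CPM in WT livers and at 26.3, 30.8, 27.1 and 24.9 CPM in HKO livers. The lowest HKO liver was above the highest WT liver. The log2 fold change was 0.42 with a standard error of 0.10 (edgeR adjusted p = 0.0403), and DESeq2 and limma-voom gave adjusted p values of 0.0118 and 0.0483. The call was kept only without WT replicate 3 (0.0297) and was lost in the 7 fits that leave out WT replicate 1, 2 or 4 or any 1 HKO liver, with edgeR adjusted p values up to 0.129. It was also lost with scaling by total counts (edgeR adjusted p = 0.155) and with the replicate number added as a block (edgeR adjusted p = 0.101). Uvrag, which forms another complex with the same lipid kinase and acts in autophagosome and endosome maturation, was at 31.8, 35.5, 32.7 and 36.2 CPM in WT and at 43.3, 40.1, 36.4 and 41.6 CPM in HKO livers. Its groups met almost end to end, and its log2 fold change was 0.24 (standard error 0.085, edgeR adjusted p = 0.132). Becn1 (beclin 1), the subunit common to both complexes, had 58 ± 2.26 and 54.6 ± 2.85 CPM, a log2 fold change of -0.086 (edgeR adjusted p = 0.573). Wipi1 and Wipi2, which bind the lipid that this kinase makes, had log2 fold changes of 0.13 and 0.0075. The direction of both changed with the liver left out, from -0.050 to 0.23 for Wipi1 and from -0.029 to 0.040 for Wipi2.

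The conjugation genes attach LC3 and its relatives to the growing membrane. Atg5 was at 90.8, 91.0, 86.9 and 95.4 CPM in WT and at 86.4, 87.9, 85.2 and 85.3 CPM in HKO livers. The WT and HKO ranges overlapped, and the log2 fold change of -0.079 (standard error 0.067) was not called (edgeR adjusted p = 0.570), in the gene with 2 overlapping seed matches for miR-33. Atg12, which is joined to Atg5 as a ubiquitin-like tag, was at 42.0, 55, 44.7 and 49.3 CPM in WT and at 42.5, 33.9, 40.5 and 37.6 CPM in HKO livers. Only HKO replicate 1 reached above the lowest WT liver, and the log2 fold change was -0.31 (standard error 0.10, edgeR adjusted p = 0.124). Atg7, the E1-like enzyme of both conjugation reactions, had 31.4 ± 2.48 and 25.5 ± 3.00 CPM (SD, n = 4), a log2 fold change of -0.30 (edgeR adjusted p = 0.121). Atg16l1, the partner of the Atg12-Atg5 conjugate, had 18.0 ± 1.22 and 20.3 ± 0.872 CPM, a log2 fold change of 0.17 (edgeR adjusted p = 0.323). None of the 4 was called by edgeR, and 2, Atg7 and Atg12, had an unadjusted p under 0.05, both lower.

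Map1lc3b (LC3B), the ATG8 protein whose lipid-bound form marks autophagosomes, was at 88.9, 79.0, 91.1 and 82.5 CPM in WT and at 86.8, 82.3, 83.8 and 93.6 CPM in HKO livers. The groups covered the same range, with a log2 fold change of 0.021 (standard error 0.078, edgeR adjusted p = 0.924) that fell to -0.070 with scaling by total counts. Map1lc3a (LC3A) had 12.5 ± 1.72 and 11.1 ± 0.914 CPM (SD, n = 4), and Gabarapl1, another ATG8 protein, had 372.2 ± 14.7 and 353.0 ± 63.3 CPM. Sqstm1 (p62), the receptor that brings ubiquitin-tagged cargo to the ATG8 proteins, had 299.8 ± 12.1 and 281.0 ± 24.7 CPM. Their log2 fold changes were -0.17, -0.076 and -0.093, and 0 of the 4 genes were called by edgeR or had an unadjusted p under 0.05. Of the 4 genes described as miR-33 targets in macrophages (Atg5, Atg12, Map1lc3b and Lamp1), none was called by edgeR, DESeq2 or limma-voom, and 1, Map1lc3b, had a log2 fold change above 0.

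**Figure D4:**
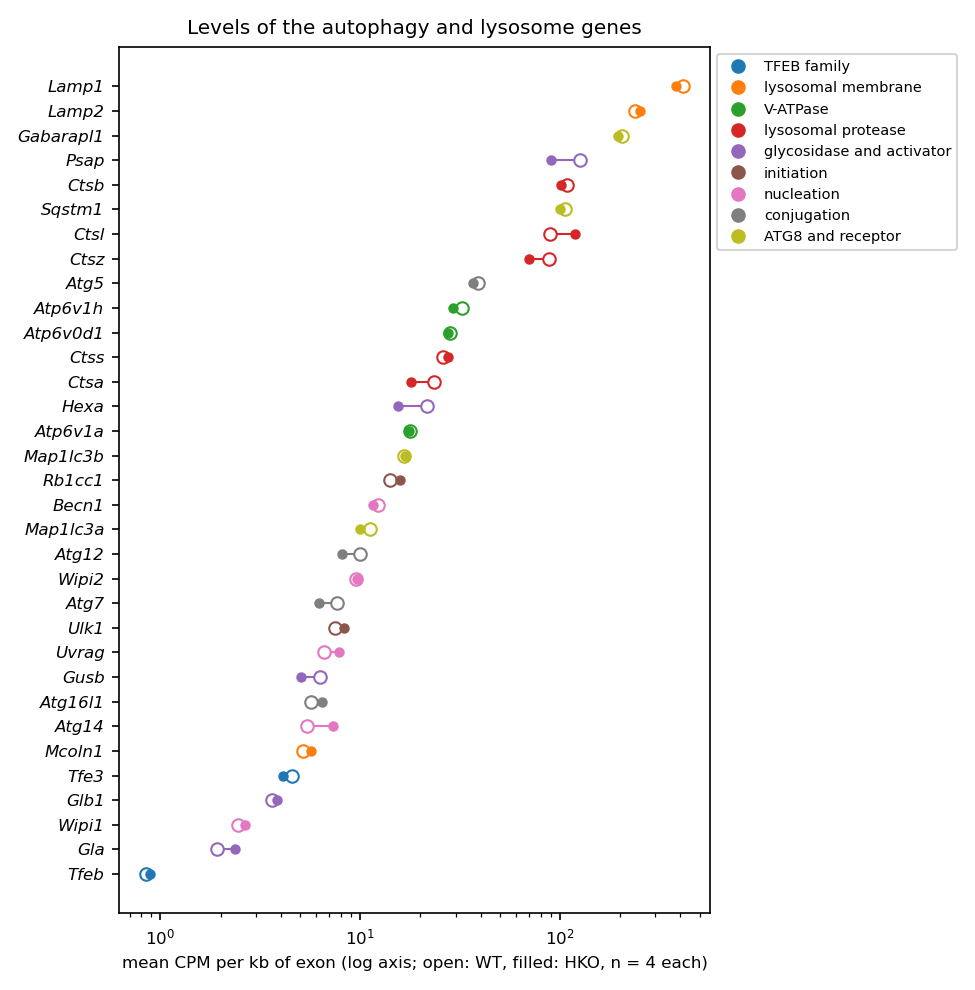
Mean CPM per kilobase of exon (log axis) of the 33 genes in WT (open) and HKO (filled) livers, n = 4 each, in the order of the WT level. Levels span from 0.847 CPM per kb for Tfeb to 412.4 for Lamp1, and the open and filled points lie apart most for Psap, Hexa, Atg14 and Ctsl.

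The genes with an E-box had fold changes on both sides of 0. The 11 genes with CACGTG in the promoter window had a median log2 fold change of -0.014, with 5 above 0 and 6 below. The 15 genes with a window and no CACGTG had a median of 0.0075, with 8 above and 7 below. Of the 2 genes with a call, Atg14 held the motif, and the windows of Psap did not.

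Other genes of the same pathways were counted from lists of 85 lysosome genes, 44 autophagy genes and 22 regulators of TFEB and autophagy. Of the 84 lysosome genes tested, 0 were called higher and 4 lower (4.76%), where 1.66% and 3.37% of all tested genes were. Their log2 fold changes lay above 0 in 32 genes and below 0 in 52, with a median of -0.049. Lipa, the lysosomal acid lipase that hydrolyses cholesteryl esters and triglycerides, had a mean of 379.9 ± 61.4 CPM (SD, n = 4) in WT and 243.1 ± 33.7 in HKO livers. The log2 value of this difference was -0.64 (standard error 0.13, edgeR adjusted p = 0.0181), and the call was lost without WT replicate 1 or WT replicate 2. Its counts were fractional in 3 livers. Vps41, a subunit of the complex that tethers membranes to the lysosome, had 88.5 ± 4.38 and 69.8 ± 2.34 CPM, a log2 fold change of -0.34 (edgeR adjusted p = 0.0194) that was lost without WT replicate 1, WT replicate 2 or HKO replicate 4. Arsb, the arylsulfatase that degrades dermatan sulfate, had a log2 fold change of -0.42 (edgeR adjusted p = 0.0252), and Laptm4b, a lysosomal membrane protein, -0.36 (edgeR adjusted p = 0.0420). Arsb was called in 3 of the 8 fits that leave out a liver, those without HKO replicate 1, WT replicate 3 or WT replicate 4, and Laptm4b in 1, that without WT replicate 4. In all 4 genes every HKO liver was below every WT liver, which adds no support, since the calls rest on the same values. Of the 84 genes, 10 (11.9%) did not overlap between the genotypes, 2 with HKO above WT and 8 below, beside 12.5% of all tested genes.

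Of the 44 autophagy genes, edgeR called 0. An unadjusted p under 0.05 was found for 5 (11.4%), 3 higher and 2 lower, against 19.8% of all tested genes. DESeq2 and limma-voom called 0 of them as well. Their log2 fold changes were above 0 in 22 and below 0 in 22. Of the 22 regulators, 1 was called (4.55%): Mtor, the kinase of the nutrient-sensing complex that restrains autophagy. It was at 52.9, 59.8, 48.9 and 46.0 CPM in WT and at 36.0, 35.2, 36.3 and 33.1 CPM in HKO livers. All HKO livers lay below all WT livers and close together, and the log2 fold change was -0.56 (standard error 0.092, edgeR adjusted p = 0.00669). This call was kept in all 8 fits that leave out a liver. The coordinates of Mtor hold Angptl7 on the other strand. The 3 lists together had 5 calls among 150 tested genes (3.33%), beside 5.03% of all genes tested. Without WT replicate 1 or WT replicate 2 only 1 call was left among them, Mtor, and without HKO replicate 2 or HKO replicate 3 there were 3.

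**Figure D5:**
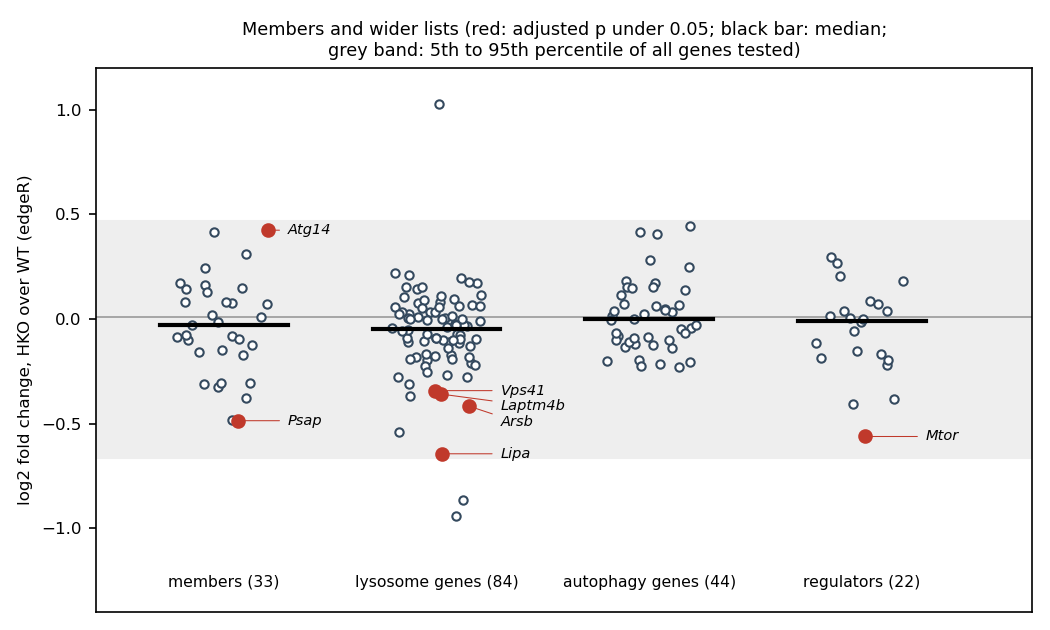
Log2 fold change of HKO over WT livers (y axis) for the 33 genes and the 3 wider lists, with red points for an adjusted p under 0.05 from edgeR, black bars for the median of each list and a grey band from the 5th to the 95th percentile of all tested genes (-0.66 to 0.47). The medians lie between -0.049 and -0.0013, and the 5 called genes of the wider lists, Lipa, Vps41, Arsb, Laptm4b and Mtor, all lie below 0.

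Markers of the liver's cell types were read beside these values. Of 6 hepatocyte markers, 3 were called higher by edgeR in HKO livers, Cps1 with a log2 fold change of 1.26, Serpina1c with 0.90 and Hnf4a with 0.36. In all, 4 of the 6 lay above 0 and 2 below, the lowest at -0.083. The summed level of the list overlapped between the genotypes. Of 6 stellate cell markers, 2 were called lower, the collagen genes Col1a1 and Col1a2, with log2 fold changes of -2.81 and -1.96. In all, 4 of the 6 lay below 0 and 2 above, up to 0.19, with a median of -0.12. The sum was 371.2 to 452.7 CPM in WT and 292.1 to 404.5 in HKO livers. Of 4 tested markers of lipid-associated macrophages, 3 lay below 0 and 1 above, at 0.0039, and 1, Gpnmb, was called lower. It was at 0.767 to 1.49 CPM in WT livers and at or under the floor of 3 counts in every HKO liver. Gpnmb thus passed the expression filter through the WT livers alone, so its call could only be lower and gives no support. The lipid-associated macrophage markers summed to 56.7 to 72.9 CPM in WT livers and to 42.2, 86.8, 49 and 43.5 CPM in HKO replicates 1 to 4. The endothelial markers summed to 42.6 to 145.9 CPM in WT and 80.4 to 168.9 in HKO livers, with 0 of 4 called, and the neutrophil and lymphocyte markers stayed at or under 6.32 CPM in sum. No marker with values was at 0 in every liver, and the neutrophil marker Ly6g was not analysed here. The part of cell composition in the difference of Psap, Atg14, Lipa or Mtor was not tested.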

How the data were processed

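Livers of 4 WT and 4 HKO mice were sequenced, with genotypes and replicate numbers as labelled. Titles and column headers carry a different animal number for each library, while the descriptions of the 4 WT samples repeat 1 number; the titles were taken as the mice. The members, the gene lists and the tests were chosen with earlier results of these data known. The authors deposited estimated counts per gene, not normalized, from Partek's expectation-maximization quantification. The submitters' processing notes name STAR and Partek, and versions, genome build and strand setting are not given in the sources used here. Per the labels, rRNA was depleted and a kit for small RNA was used, so the type of library is uncertain. Of the deposited values 80.5% are whole within 0.05 counts, and 0 columns were left without a sample. Listed positions matched GRCm38.p6: of the 33 genes 28 shared a RefSeq start or end, once listed ends were read as 1 base too high, as they were for 11610 of 17767 matched genes. Printed ends are 1 base lower than listed.

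Counts were rounded and tested with edgeR 4.0.16 in R 4.3.3 (TMM scaling, expression filter with a minimum count of 10, robust quasi-likelihood test), with Benjamini-Hochberg adjustment over 12395 genes and a call at an adjusted p under 0.05. The study gives this threshold but no tool for it. Standard errors were obtained from the log2 fold change and F (its size over the root of F). Total counts per liver were 12174339 to 18735785, and the common biological coefficient of variation was 0.18. Levels per kilobase use the union of GENCODE exons. As alternatives, the test was replaced by DESeq2 1.42.0 or by voom of limma 3.58.1, and the scaling by RLE, upper quartile or total count. The filter was dropped or raised to at least 10 counts in every liver, the replicate number was added as a block, and each liver was left out in turn. Sequence searches and plots used Python 3.11.15, pandas 2.3.3, numpy 2.4.6 and matplotlib 3.10.9. Values in every liver are given for genes that were called or did not overlap between genotypes, Tfeb, Tfe3, Ctss and the macrophage targets of miR-33. Of the wider lists only called genes are named, and Mtor and Clec4f were given in every liver after their values were seen. The genes named in the promoter and leave-one-out sentences were also chosen after their values were seen. P-values measure the spread between these libraries, taken as 1 per mouse.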

Additional observations from a re-analysis of the deposited data

Results flagged for a closer look

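Of 96 groups of 4 livers looked at (the 33 genes, the 5 called genes of the wider lists and the 10 macrophage and Kupffer cell markers, in each genotype), 4 held 1 liver far from the other 3 by Dixon's criterion, where chance gives about 5, since about 1 group in 20 is picked out by chance. Mcoln1 was at 8.67 CPM in WT replicate 4 and at 11.1 to 11.4 CPM in the other WT livers. Gusb was at 28.0 CPM in WT replicate 1 and at 21.9 to 22.5 CPM in the others. Clec4f was at 19 CPM in HKO replicate 2 against 52.7 to 57.5 CPM, in the liver that was also low for Ctss. The macrophage marker Itgam was at 2.10 CPM in WT replicate 4 against 0.837 to 1.04 CPM.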

How the results depend on the processing

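DESeq2, RLE scaling, at least 10 counts in every liver and no expression filter each called 2 of the 33 genes higher (Atg14 and Ctsl), and the replicate block (Atg14 at an adjusted p of 0.101) and total count scaling called 0. Total count scaling called 2 lower (Ctsz and Psap). Psap was called lower in each of the 8 settings that keep all livers. Over all genes, DESeq2 called 1014 (385 higher, 629 lower), and total count scaling 744 (119 higher, 625 lower) with the median log2 fold change of all genes at -0.080. The wider lists had 8 calls with DESeq2, 8 with total count scaling and 3 with the replicate block. The replicate numbers do not pair the livers, with correlations of same-numbered livers of -0.062, 0.012, -0.085 and -0.15, and the block called 456 genes. With 1 liver left out, 0 to 1 of the 33 genes were called higher, 0 to 2 lower, 212 to 597 of all genes and 1 to 7 of the wider lists; all genes fell most without WT replicate 2 (212), WT replicate 1 (272) and HKO replicate 4 (364), and without WT replicate 2 none of the 33 was called. In 10 genes with a log2 fold change of at most 0.13 in size the direction changed. With total count scaling Lamp2 went to -0.0097, Ctss to -0.033, Glb1 to -0.013, Wipi2 to -0.081 and Map1lc3b to -0.070. With 1 liver left out the ranges were -0.052 to 0.19 for Tfeb, -0.082 to 0.039 for Atp6v1a, -0.049 to 0.016 for Atp6v0d1, -0.039 to 0.31 for Ctss, -0.010 to 0.15 for Glb1, -0.050 to 0.23 for Wipi1, -0.029 to 0.040 for Wipi2, -0.017 to 0.054 for Map1lc3b and -0.20 to 0.010 for Gabarapl1. The cause of these changes was not tested. The depth gave at least 38 counts for each of the 33 genes in every liver.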
